A study of Mus musculus with 9 samples.

Results

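The genes described here are the ligands and receptors of the tumour necrosis factor (TNF) superfamily that carry the symbols Tnfsf (ligand) or Tnfrsf (receptor) followed by a number. They were taken by symbol from a table of deposited values for 54361 genes. The pattern gave 29 genes, of which 11 were ligands and 18 were receptors. RNA came from cells of the lungs of C57BL/6 mice that the labels call eosinophils, granulocytes of type 2 immunity, and that had been sorted directly into lysis reagent. In the naive group (n = 3) the mice had received saline alone through the tail vein. In the other groups they had received PyMT cells, a mouse mammary tumour line, in saline by the same route, a model in which tumour cells are placed in the circulation and do not leave a primary tumour. The cells of these mice are divided by the labels into a Siglec-F high group (n = 3, iEOS) and a Siglec-F int group (n = 3, rEOS), Siglec-F being a surface lectin of mouse eosinophils. Each library pooled the cells of 3 to 4 mice, so n counts pools, and no label gives the age of the mice.

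Ligands of this family are mostly trimeric membrane proteins, some of which are shed, and they act on neighbouring cells that carry the matching receptor. Receptors with a death domain can recruit FADD or TRADD and activate caspases, while the others bind TRAF adaptors and activate NF-kB and MAP kinases. Decoy receptors bind ligand and pass on no death signal. In the lung, members of the family are best known for costimulation of T cells, survival of B cells, and the life and death of myeloid cells.

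Values below are normalized counts, that is, counts per gene divided by a size factor of the library. Differences between groups are given as log2(value + 1) ± SE, from limma with Benjamini-Hochberg adjusted p, and are called at 0.05. Adding 1 shrinks the differences of members with few reads. The libraries held between 2205949 and 12495639 reads, and the naive libraries were the shallowest on average, at 4453385, 2205949 and 5529406. Genes with a mean of at least 5 over the 9 libraries were tested, which kept 18 of the 29 genes, 6 ligands and 12 receptors.

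The label of the sorted cells and the RNA differed. Siglecf, after whose product the groups are named, stood at 16.02, 11.9 and 12.8 on average in naive, high and int libraries. Its differences were -0.26 and -0.05 against naive (adjusted p = 0.834 and 0.973) and -0.21 between high and int (adjusted p = 0.954). These are RNA values on 28, 39 and 96 reads, while the group names refer to the surface protein, which these data do not measure. Of 14 eosinophil markers, Ccr3, Prg3 and Cebpe were at 0 in every naive library, and Epx rested on 3, 20 and 16 reads in the groups. Il5ra rested on 5, 5 and 23 reads and Gata1 on 12, 2 and 11. Prg2 averaged 5.01, 129 and 39.1, most of it from high library 3 (379.54) and int library 3 (105.64), and was not called. Other markers were better filled, with means of 309, 409 and 170 for Ear2 and 87.8, 140 and 46.3 for Ear1. Ear6 averaged 34.4, 97.5 and 31.0, and Adgre1 68.6, 290 and 354. Of 8 tested, 2 rose in each comparison with naive, Adgre1 among them, where 14.7% and 12.0% of all genes rose. The summed level of the 14 ran from 402 to 951 in naive, 3861 to 8302 in high and 2907 to 4132 in int libraries. Il1rl1, the IL-33 receptor, made up most of the high and int sums, and without that gene the sum ran from 335 to 774, 666 to 1370 and 349 to 1083. Alox15 averaged 47.9, 18.9 and 24.2 and was not called. All of 15 pigment cell markers were detected, and they summed to between 81306 and 86477 in the naive libraries, 789 to 1659 in the high and 1127 to 2024 in the int libraries. The sum of 16 fibroblast markers was 8365 to 10020 in naive, 36093 to 51766 in high and 17421 to 36679 in int libraries, and that of 14 monocyte and macrophage markers 12867 to 17542, 23071 to 32447 and 25403 to 95797. Markers of neutrophils summed to 2306 to 3370, 1742 to 3697 and 959 to 1625, those of T and NK cells to 134 to 216, 29.6 to 174 and 103 to 155, those of B cells to 792 to 1206, 499 to 974 and 503 to 687, those of dendritic cells to 174 to 563, 246 to 576 and 542 to 1463, those of endothelium to 883 to 1086, 671 to 956 and 548 to 688, and those of epithelium to 4160 to 7906, 5307 to 6304 and 2879 to 3788. The groups are therefore called libraries labelled naive, Siglec-F high and Siglec-F int, shortened to naive, high and int, and the part of these markers in the results below was not tested. High library 1 and int library 2 stood apart within their groups. High library 1 was the lowest of the 9 libraries for 30.8% of all genes tested and the highest for 25.9%, and int library 2 held the top of the monocyte and macrophage sum.

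In the libraries labelled Siglec-F high, 7 members rose against naive and none fell. They were the ligands Tnfsf8, Tnfsf9 and Tnfsf10 and the receptors Tnfrsf9, Tnfrsf11a, Tnfrsf21 and Tnfrsf23. In the libraries labelled Siglec-F int, 5 of these rose against naive, which were Tnfsf8, Tnfsf9, Tnfrsf11a, Tnfrsf21 and Tnfrsf23, and none fell. The largest log2 differences were those of Tnfsf8 and Tnfrsf21, at 4.02 and 4.01 in high and 4.73 and 3.93 in int libraries. In libraries of mixed RNA, fewer cells of a type and less RNA per cell cannot be told apart.

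The count of 7 of 18 in high libraries (38.9%) stood beside 14.7% of all 13642 genes tested that rose and 16.6% that fell. The count of 5 of 18 in int libraries (27.8%) stood beside 12.0% that rose and 10.3% that fell. In either direction, 31.3% and 22.3% of all genes were called, so the share of members called in either direction was near that of all genes. The median log2 fold change of the 18 members was 0.66 in high and 1.09 in int libraries, beside -0.11 and -0.02 over all genes tested. All 3 high libraries lay above all 3 naive ones for 7 members (20.2% of all genes did so), and all 3 int libraries for 7 members (23.3% of all genes). With any 1 library left out, Tnfsf8, Tnfsf10, Tnfrsf21 and Tnfrsf23 stayed called in high libraries and Tnfsf8, Tnfsf9 and Tnfrsf23 in int libraries. The count in high libraries was 4 without naive library 1 or 3, high library 2 or 3 or int library 1 or 3, and 3 in a fit of only those groups, and the count in int libraries was 3 without int library 1, 2 or 3. Tnfsf8, with a naive mean of 1.74, passed the filter only through the groups in which it was high. Of the 29 members 11 were not tested, so these counts do not speak for the family as a whole. Both comparisons use the same naive libraries and are not independent of each other. Under a scaling to equal totals, higher genes made up 57.0% of all calls in high libraries in place of 46.9%, and 69.1% in int libraries in place of 53.8%, and edgeR gave 61.2% and 63.9%, while TMM factors gave 66.1% in int libraries. Equal totals moved the median of all genes in int libraries to 0.23. The 7 rises of the members in high and 5 in int libraries kept their direction under each of these scalings, while Tnfrsf9 in high libraries was not called under equal totals (1.11, adjusted p = 0.052).

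**Figure D1:**
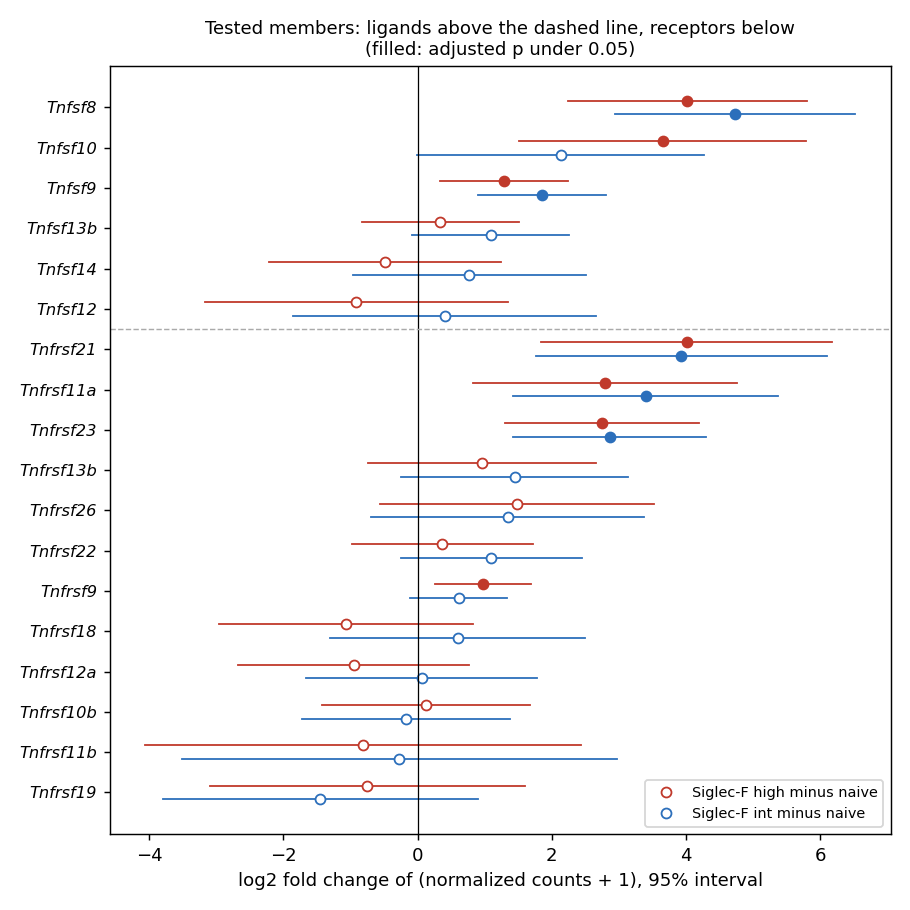
Log2 fold change (value + 1 scale, limma) of the 18 members tested, for each tumour group less naive, with 95% intervals as bars and called members as filled points. The called members lie to the right of 0 in both comparisons with naive.

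Promoter sequence was looked at for the called members, which were picked by their rise against the same naive libraries. RefSeq windows (GRCm38.p6) were at hand for 22 of the 29 members, 26 windows in all, and none was used for Tnfsf9. The 150 bases shown for 5 called members are the nearest upstream of the start that hold no annotated exon, and those of Tnfrsf11a, Tnfsf10 and Tnfsf8 end 6, 50 and 64 bases before the RefSeq start, so that members can be compared by their CG dinucleotides, which are in capitals. Each runs 5′ to 3′ on the strand of the gene.
Tnfsf8, chr4:63861348-63861497, minus strand: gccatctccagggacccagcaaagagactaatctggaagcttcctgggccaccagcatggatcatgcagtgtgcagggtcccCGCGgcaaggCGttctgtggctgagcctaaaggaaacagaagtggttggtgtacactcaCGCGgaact
Tnfsf10, chr3:27316878-27317027, plus strand: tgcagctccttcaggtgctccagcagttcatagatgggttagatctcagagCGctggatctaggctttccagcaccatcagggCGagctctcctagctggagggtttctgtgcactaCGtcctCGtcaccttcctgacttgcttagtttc
Tnfrsf11a, chr1:105780568-105780717, plus strand: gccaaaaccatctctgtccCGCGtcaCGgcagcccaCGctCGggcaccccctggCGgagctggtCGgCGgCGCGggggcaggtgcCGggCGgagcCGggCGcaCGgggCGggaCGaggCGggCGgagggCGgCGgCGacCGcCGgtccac
Tnfrsf21, chr17:43016405-43016554, plus strand: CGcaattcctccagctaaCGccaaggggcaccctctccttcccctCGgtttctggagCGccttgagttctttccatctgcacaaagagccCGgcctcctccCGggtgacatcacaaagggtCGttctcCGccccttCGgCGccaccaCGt
Tnfrsf23, chr7:143685876-143686025, minus strand: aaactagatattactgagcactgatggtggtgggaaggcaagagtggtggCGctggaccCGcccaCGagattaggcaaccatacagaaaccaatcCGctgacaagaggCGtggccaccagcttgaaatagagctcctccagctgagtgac
The Tnfrsf11a stretch holds 24 CG dinucleotides, the Tnfrsf21 stretch 11, and those of Tnfsf8, Tnfrsf23 and Tnfsf10 hold 5, 5 and 4. Over the whole 250 bases upstream the counts were 31 for Tnfrsf11a, 12 for Tnfrsf21, 8 for Tnfsf8 and Tnfrsf23, 6 for Tnfsf10 and 4 in each of the 2 windows of Tnfrsf9, beside a median of 6 over all 32851 windows. The windows of these 6 called members thus ran from below that median to far above it.

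Motifs were searched in the 250 bases upstream on both strands. These were the NF-kB motif, the AP-1 motif TGANTCA, the GAS motif TTCNNNGAA bound by STAT proteins, the CRE motif TGACGTCA and the E-box CACGTG. They occurred in 3, 5, 3, 0 and 3 of the 26 windows of members, and in 7.25%, 6.75%, 7.02%, 1.55% and 6.02% of all windows. Among the called members, the only matches were in 1 of the windows of Tnfrsf9. The NF-kB matches, which overlap each other, run from 43 to 33 bases before that start, and the GAS match from 136 to 128 bases before it. They are shown with the match in capitals, and an AP-1 match lies from 15 to 9 bases before the start. The NF-kB and AP-1 matches lie in bases annotated as exon and the GAS match does not.
Tnfrsf9 NF-kB match, chr4:150927947-150927976, plus strand: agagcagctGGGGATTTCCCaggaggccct
Tnfrsf9 GAS match, chr4:150927853-150927882, plus strand: caacagctgaTTCCAAGAAacccttcagag
A match is a description of the letters only, and the other called members with a window, Tnfsf8, Tnfsf10, Tnfrsf11a, Tnfrsf21 and Tnfrsf23, hold none of these letters in theirs.

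Tnfsf8, the CD30 ligand (ENSMUSG00000028362.2; chromosome 4, 63831308 to 63861347, minus strand, GRCm38), a membrane ligand of activated lymphoid and myeloid cells, had almost no reads in the naive group. Its normalized counts were 0, 5.21 and 0 in the naive libraries, 40.6, 16.7 and 34.97 in the high and 44.6, 61.1 and 40.2 in the int libraries. Every tumour-group library lay above every naive one. The naive group held 2 reads, both in naive library 2, the shallowest, against 106 and 355 in the high and int groups. With the reads of a group pooled and divided by its pooled depth, the ratio to naive was 34.6 (95% counting interval 9.34 to 289) in high and 58.9 (16.2 to 488) in int libraries, while the group means of the normalized counts were 1.74, 30.8 and 48.6. On the log2(value + 1) scale Tnfsf8 rose by 4.02 ± 0.81 (adjusted p = 0.00576) in high and 4.73 ± 0.81 (adjusted p = 0.00318) in int libraries. It passed the filter through the tumour groups alone. Its receptor Tnfrsf8 (CD30) was below the filter, with 2, 0 and 15 reads in naive, high and int libraries.

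Tnfsf9, the 4-1BB ligand (ENSMUSG00000035678.8; chromosome 17, 57105325 to 57107757, plus strand), is carried by antigen-presenting cells and costimulates T cells through Tnfrsf9. It stood at 68.8, 167 and 139 in the naive libraries, 316, 310.2 and 241 in the high and 297, 726 and 355 in the int libraries. The groups with tumour cells did not overlap with naive, and int library 2 was the highest of all. The differences were 1.29 ± 0.43 (adjusted p = 0.0432) in high and 1.85 ± 0.43 (adjusted p = 0.0128) in int libraries. In int libraries the call held when any 1 of the 9 libraries was left out. In high libraries it did not pass without naive library 1 (0.91, adjusted p = 0.142), naive library 3 (adjusted p = 0.0711), high library 1, 2 or 3 (adjusted p = 0.058, 0.0737 and 0.0659) or int library 1 or 3 (adjusted p = 0.054 and 0.065), nor with a filter at a mean of 1, with no filter or in a fit of only those groups (adjusted p = 0.0509, 0.0774 and 0.0671). Of its 1290 exon bases, 192 are shared with Gm11110 on the opposite strand, and the strand used in counting is not given in the sources used here.

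Tnfrsf9, the 4-1BB receptor or CD137 (ENSMUSG00000028965.13; chromosome 4, 150914562 to 150946102, plus strand), had a narrow spread within groups. Its values were 90.6, 62.5 and 80.2 in naive, 135, 160.5 and 163 in high and 128, 106 and 122 in int libraries. All high libraries lay above all int libraries, and these above all naive ones. Against naive, Tnfrsf9 rose by 0.98 ± 0.33 (adjusted p = 0.0433) in high libraries, a 1.97-fold difference, and stood 0.61 ± 0.33 (adjusted p = 0.199) above naive in int libraries. The first call was near the threshold. Of the 9 single libraries left out, it held for high library 1 alone (adjusted p = 0.0272), and it held without high library 1 and int library 2 together (adjusted p = 0.0266). Leaving out naive library 1, 2 or 3 gave adjusted p = 0.0601, 0.0985 and 0.0845, leaving out high library 2 or 3 gave adjusted p = 0.0774 and 0.109, and leaving out int library 1, 2 or 3 gave adjusted p = 0.0722, 0.0537 and 0.077. It did not pass with a filter at a mean of 1, with no filter or in a fit of only those groups either (adjusted p = 0.0622, 0.0717 and 0.108).

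**Figure D2:**
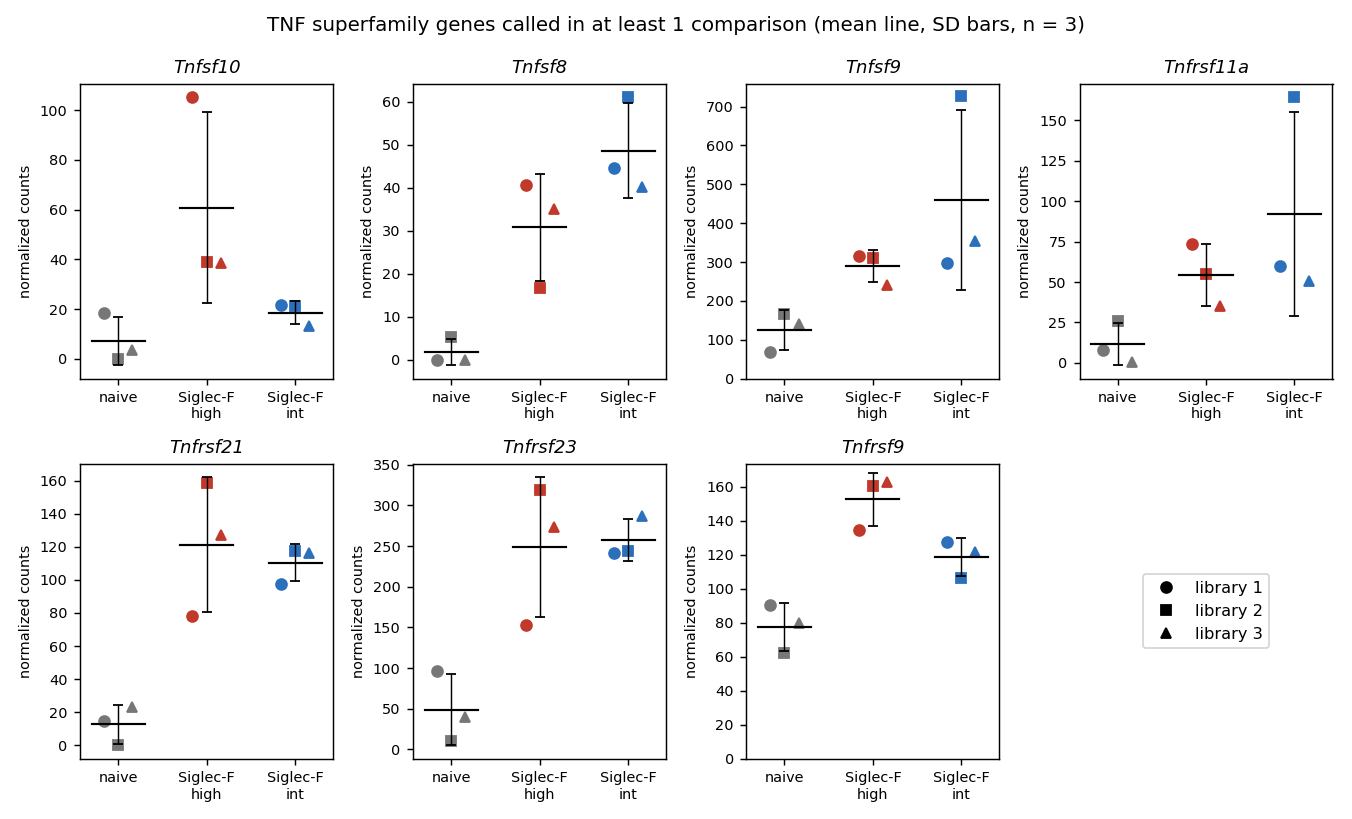
Normalized counts of the 7 called members in each of the 9 libraries (points) with the group mean and SD, 1 panel per gene with its own scale. The naive libraries lie below the Siglec-F high libraries in every panel, and Tnfsf10 is the member whose int libraries overlap with naive.

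Tnfsf10, or TRAIL (ENSMUSG00000039304.11; chromosome 3, 27317028 to 27342427, plus strand), triggers apoptosis through death receptors. It was found at 18.4, 0 and 3.34 in naive, 105, 38.8 and 38.4 in high and 21.5, 21.1 and 13.3 in int libraries. The high libraries were above both other groups, while int library 3 was below naive library 1. In high libraries Tnfsf10 rose by 3.65 ± 0.97 (adjusted p = 0.0182), a call that held when any 1 library was left out, though without high library 1 and int library 2 together the adjusted p was 0.0524, and in a fit of only those groups it was 0.0537. In int libraries the difference was 2.13 ± 0.97 (adjusted p = 0.137), and without naive library 1 it was 3.20 and passed (adjusted p = 0.0355). The difference between high and int, 1.52 (95% interval -0.62 to 3.66), was not called (adjusted p = 0.797).

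The mouse receptors that bind TRAIL include Tnfrsf10b, which carries a death domain, and the decoys Tnfrsf22 and Tnfrsf23, which carry none. Tnfrsf10b (chromosome 14, 69767472 to 69784411, plus strand) stood at 134, 107 and 43.4 in naive, 57.0, 131 and 108 in high and 180.4, 25.3 and 93.3 in int libraries. All 3 groups overlapped, and int library 2 was the lowest library. Its differences from naive were 0.12 ± 0.70 (adjusted p = 0.906) and -0.18 ± 0.70 (adjusted p = 0.879), and the first changed sign without naive library 3 or high library 2, while the second did so without naive library 1 or int library 2 and under equal totals and TMM factors. The death receptor of the ligand that rose in high libraries was thus not called in either group.

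Tnfrsf23 (ENSMUSG00000037613.16; chromosome 7, 143665809 to 143685872, minus strand) lies beside Tnfrsf22 and Tnfrsf26 in 1 cluster on the same strand. It stood at 96.3, 10.4 and 39.3 in naive, 152, 319 and 274 in high and 242, 244 and 287 in int libraries. Each tumour-group library lay above the highest naive library. Tnfrsf23 rose by 2.75 ± 0.65 (adjusted p = 0.0117) in high and 2.86 ± 0.65 (adjusted p = 0.0119) in int libraries, and both calls held when any 1 library was left out.

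Its neighbour Tnfrsf22 (chromosome 7, 143634806 to 143649661) stood at 70.0, 28.7 and 34.3 in naive, 23.0, 122 and 52.9 in high and 89.7, 70.8 and 111 in int libraries. Only the int libraries cleared the naive ones. Its differences were 0.37 ± 0.61 (adjusted p = 0.661) and 1.1 ± 0.61 (adjusted p = 0.218), the first of which was -0.22 without high library 2. Tnfrsf26 (chromosome 7, 143607659 to 143628722), whose ligand is not established, stood at 4.59, 52.1 and 3.34 in naive, 31.8, 29.2 and 27.3 in high and 42.4, 11.8 and 37.0 in int libraries. Naive library 2 was the highest of the 9, and without it Tnfrsf26 passed in both comparisons (2.63, adjusted p = 0.0272, and 2.49, adjusted p = 0.0372). With it the differences were 1.48 ± 0.92 (adjusted p = 0.231) and 1.35 ± 0.92 (adjusted p = 0.317). Tnfrsf22 and Tnfrsf23 share 957 stretches of 35 bases, 23.4% and 24.5% of those in each gene, whereas neither shares any with Tnfrsf26. Reads that fall on these stretches may have been left out in counting, so the values of Tnfrsf22 and Tnfrsf23 are uncertain. Tnfrsf23 and Tnfrsf26 also share 164 and 107 exon bases with the antisense gene E230032D23Rik.

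Tnfrsf11a encodes RANK (ENSMUSG00000026321.7; chromosome 1, 105780718 to 105847981, plus strand), the receptor through which RANK ligand drives osteoclasts and dendritic cell survival. Its values were 8.03, 26.1 and 0.84 in naive, 73.5, 54.9 and 34.97 in high and 60.1, 164 and 50.9 in int libraries. The lowest tumour-group library stood above the highest naive library. Tnfrsf11a rose by 2.79 ± 0.89 (adjusted p = 0.0369) in high and by 3.40 ± 0.89 (adjusted p = 0.0218) in int libraries. The high call did not pass without naive library 1 or 3 (adjusted p = 0.0746 and 0.101), high library 1, 2 or 3 (adjusted p = 0.0622, 0.0595 and 0.0542) or int library 1 or 3 (adjusted p = 0.0554 and 0.0538), nor without high library 1 and int library 2 together (adjusted p = 0.0709), with no filter (adjusted p = 0.0683) or in a fit of only those groups (adjusted p = 0.0835). The int call did not pass without naive library 1 or 3 (adjusted p = 0.0533 and 0.0539) or int library 1, 2 or 3 (adjusted p = 0.0577, 0.0861 and 0.0511). Without naive library 3 the size fell to 1.76 in high and 2.37 in int libraries.

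The ligand of RANK, Tnfsf11, had 0, 4 and 5 reads in naive, high and int libraries. Tnfrsf11b, or osteoprotegerin, the soluble decoy for that ligand, stood at 20.6, 0 and 20.1 in naive, 0, 5.97 and 11.1 in high and 8.59, 0.42 and 18.0 in int libraries, with differences of -0.81 ± 1.47 (adjusted p = 0.690) and -0.27 ± 1.47 (adjusted p = 0.912), whose signs turned without single libraries. Among 6 tested partners of RANK in osteoclasts, 3 rose in each comparison and none fell, where 14.7% and 12.0% of all genes rose. These partners were chosen with earlier results of these data known, so the count is not a test. Not called in high and int libraries were Ctsk (-0.44 and -0.25, adjusted p = 0.477 and 0.730) and Acp5 (0.52 and 1.28, adjusted p = 0.555 and 0.178). Dcstamp (1.47 and 3.51, adjusted p = 0.372 and 0.0641) was not called either. Csf1, the growth factor of macrophages and osteoclast precursors, rose by 3.23 (adjusted p = 0.00397) in high and 3.52 (adjusted p = 0.00318) in int libraries. Nfatc1, the transcription factor induced by RANK, rose by 2.17 (adjusted p = 0.009) and 2.70 (adjusted p = 0.00395). Csf1r, the CSF1 receptor, rose by 1.70 (adjusted p = 0.0153) and 2.61 (adjusted p = 0.00274), the first of which did not pass without naive library 1 (adjusted p = 0.0575). Csf1r is also among the monocyte and macrophage markers, whose sum was higher in both tumour groups, and the part of such cells in the values of Tnfrsf11a was not tested.

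Tnfrsf21, death receptor 6 (ENSMUSG00000023915.5; chromosome 17, 43016555 to 43089189, plus strand), has a death domain and is known from neurons and lymphocytes. It stood at 14.9, 0 and 23.4 in naive, 77.9, 159 and 127 in high and 97.7, 118 and 116 in int libraries. The 6 tumour-group libraries lay far above the 3 naive ones. The rise was 4.01 ± 0.98 (adjusted p = 0.0132) in high and 3.93 ± 0.98 (adjusted p = 0.0177) in int libraries. Naive library 2, the shallowest, had no read of it, and without that library the differences were 2.57 and 2.50 and still called. The int call did not pass without int library 1, 2 or 3 (adjusted p = 0.055, 0.0552 and 0.0619).

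Several members with well-filled libraries were not called. Tnfrsf12a, or Fn14 (chromosome 17, 23675445 to 23677468, minus strand), the receptor of TWEAK, stood at 218, 362 and 221 in naive, 26.3, 288 and 308 in high and 335, 186 and 316 in int libraries. High library 1 was far below all others. The differences were -0.95 ± 0.78 (adjusted p = 0.360) and 0.06 ± 0.78 (adjusted p = 0.966), and without high library 1 the first was 0.20. TWEAK itself, Tnfsf12 (chromosome 11, 69686250 to 69695849, minus strand), was at 70.0, 164 and 110.3 in naive, 6.58, 178 and 143 in high and 94.5, 292 and 107 in int libraries. Again high library 1 was the lowest, and the differences, -0.91 ± 1.02 (adjusted p = 0.506) and 0.40 ± 1.02 (adjusted p = 0.802), turned to 0.56 without high library 1 and -0.11 without int library 2. Neither gene of the TWEAK axis thus had a direction that held over libraries.

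The ligands of B cell survival were not called either. Tnfsf13b, or BAFF (chromosome 8, 10006467 to 10039072, plus strand), stood at 33.3, 20.8 and 23.4 in naive, 27.4, 37.6 and 32.4 in high and 63.9, 89.7 and 28.8 in int libraries. Int libraries 1 and 2 were the highest, and int library 3 fell among the naive ones. The differences were 0.34 ± 0.53 (adjusted p = 0.644) and 1.09 ± 0.53 (adjusted p = 0.163). Tnfrsf13b, or TACI (chromosome 11, 61126755 to 61149372, plus strand), a receptor of BAFF and APRIL, stood at 9.17, 88.6 and 56.0 in naive, 81.2, 112 and 40.1 in high and 77.8, 173 and 75.3 in int libraries. All groups overlapped, and the differences were 0.96 ± 0.77 (adjusted p = 0.347) and 1.45 ± 0.77 (adjusted p = 0.199). The other receptors of this axis were below the filter, with 0, 7 and 18 reads of Tnfrsf13c (the BAFF receptor) and 0, 1 and 0 reads of Tnfrsf17 (BCMA) in the naive, high and int groups.

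APRIL, Tnfsf13, was at 0 in all 9 libraries, which allows up to 1.22, 0.798 and 0.406 normalized counts over the naive, high and int groups by counting error alone. Of its 1637 exon bases, 983 are shared with the read-through gene Tnfsfm13 and 221 with the antisense gene Tnfsf13os, and reads that fall on shared bases may have been left out in counting. Tnfsf12 shares 731 of 1515 exon bases with Tnfsfm13, so its level is uncertain in the same way. A value of 0 for Tnfsf13 is therefore the absence of assigned reads only.

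**Figure D3:**
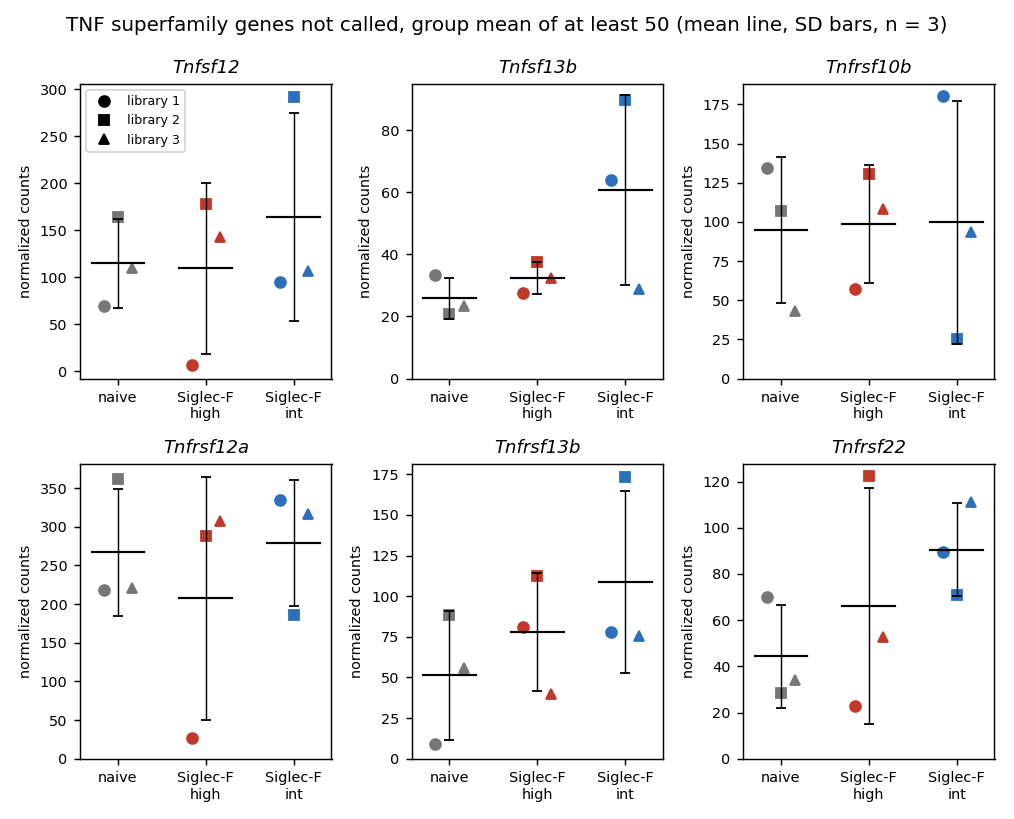
Normalized counts of the uncalled members with a mean of at least 50 in 1 group (points, 9 libraries) with the group mean and SD, 1 panel per gene with its own scale. The tumour groups overlap with naive in every panel, except int in Tnfrsf22, and high library 1 is the low point for Tnfsf12 and Tnfrsf12a.

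The remaining members, costimulatory pairs among them, had group means below 50. Tnfsf14, or LIGHT, which binds Tnfrsf14 (HVEM) and Ltbr, ranged from 6.68 to 36.5 in naive, 5.48 to 16.7 in high and 15.6 to 48.9 in int libraries, with differences of -0.48 and 0.77 (adjusted p = 0.652 and 0.506), the first of which was 0.18 without naive library 2. Tnfrsf18, or GITR, ranged from 12.6 to 23.5, 1.1 to 20.9 and 20.4 to 41.7, with differences of -1.07 and 0.60 (adjusted p = 0.351 and 0.646), and shares 414 of 1524 exon bases with the antisense gene Gm16008. Tnfrsf19, or TROY, ranged from 2.61 to 21.8, 2.19 to 9.55 and 0.95 to 14.5, with differences of -0.75 and -1.45 (adjusted p = 0.603 and 0.350). None of these had groups that were apart from each other. Below the filter, reads in naive, high and int libraries numbered 1, 10 and 21 for Tnfsf4 (OX40 ligand), 15, 25 and 27 for its receptor Tnfrsf4, 0, 5 and 12 for Tnfsf18 (GITR ligand), 0, 0 and 6 for Tnfsf15 (TL1A), 7, 31 and 38 for its receptor Tnfrsf25 (DR3), and 0, 1 and 10 for Tnfrsf14. The int group holds the most reads in sequencing depth, so these read totals are not levels.

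**Figure D4:**
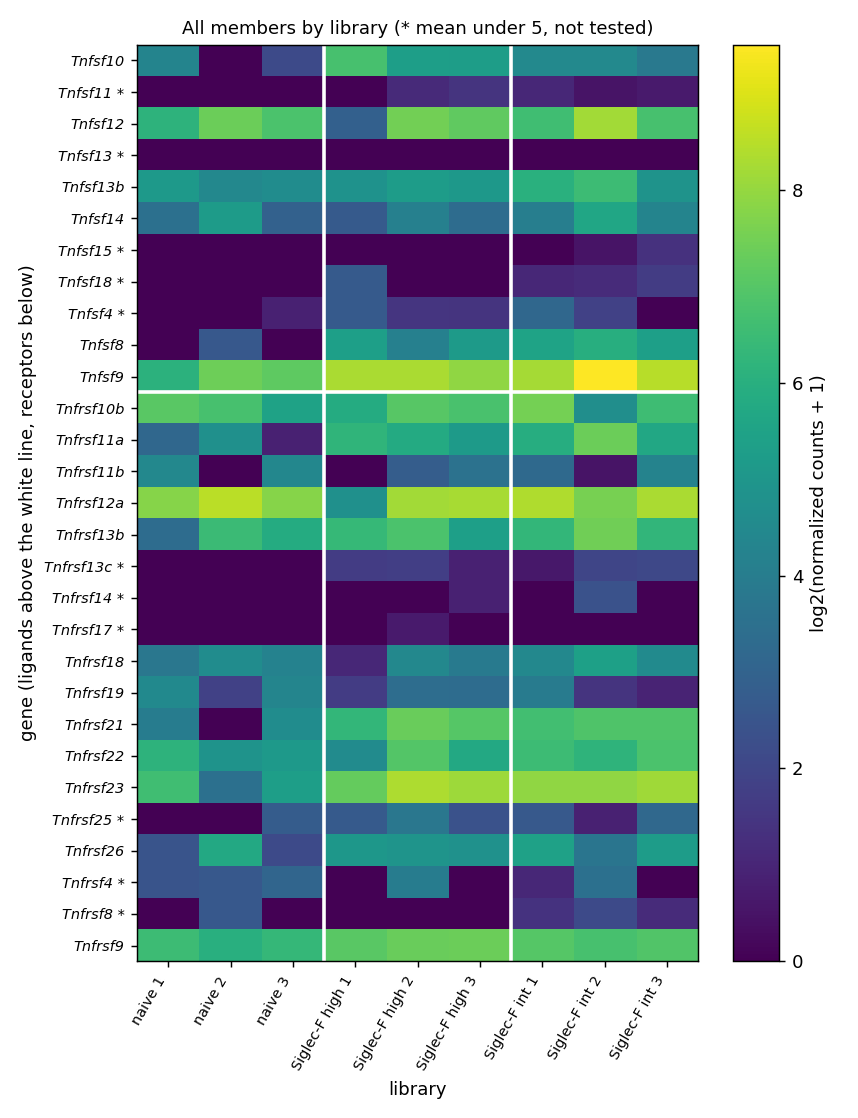
Log2(value + 1) of all 29 members (rows) in the 9 libraries (columns), with ligands and receptors separated. The called members are darker, that is lower, in the naive columns, and most of the 11 members below the filter are near 0 in every column.

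Between Siglec-F high and Siglec-F int no member was called, and limma called 0% of the 13642 genes tested, edgeR 0 genes and DESeq2 6, none of them a member. At an unadjusted p under 0.05 there were 591 genes (4.33%) and 0 members. The 18 differences ran from -1.66 for Tnfrsf18 to 1.52 for Tnfsf10, with a median of -0.55 beside -0.08 over all genes tested. The high libraries lay entirely above the int ones for Tnfsf10 and Tnfrsf9, as they did for 5.52% of all genes, and entirely below them for 0 members and 5.75% of all genes. Both genes were called in high libraries alone, and their differences between the groups were not called (adjusted p = 0.797 and 0.800), with a 95% interval of -0.36 to 1.08 around 0.36 for Tnfrsf9. The intervals of the members that were called in both groups ran from -2.50 to 1.07 for Tnfsf8, -1.51 to 0.39 for Tnfsf9, -2.57 to 1.37 for Tnfrsf11a, -2.09 to 2.25 for Tnfrsf21 and -1.56 to 1.33 for Tnfrsf23. These widths leave differences of more than 2-fold in both directions within reach for Tnfsf8, Tnfrsf11a, Tnfrsf21 and Tnfrsf23. The fit took high and int libraries as independent, though the labels do not say whether same-numbered ones came from the same mice. With the replicate number as a block, 0 genes were called between high and int.

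Int library 2 was the highest of the 9 libraries for 8 of the 18 members tested (44.4%, against 10.4% of all genes tested). These were Tnfsf8, Tnfsf9, Tnfsf12, Tnfsf13b, Tnfsf14, Tnfrsf11a, Tnfrsf13b and Tnfrsf18. This is also the library with the highest monocyte and macrophage sum, at 95797, and the part of such cells was not tested. High library 1 was the lowest of the 9 for 5 of 18 members (27.8%, beside 30.8% of all genes). Without both libraries, 5 members were called in each comparison with naive, and Tnfsf10 and Tnfrsf11a were no longer called in high libraries.

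Superfamily genes with other symbols were read in the same way. Of 7 such ligands 2 were tested and none was called. Tnf stood at 192, 292 and 297 in naive, 136, 544 and 451 in high and 415, 1363 and 685 in int libraries (adjusted p = 0.660 and 0.0745). Among 8 further receptors 7 were tested, and 1 rose and 1 fell in each comparison, again beside 31.3% and 22.3% of all genes called. Eda2r, a receptor of ectodysplasin, stood at 5.73, 0 and 0.84 in naive, 120, 41.8 and 64.0 in high and 34.9, 12.6 and 50.6 in int libraries. It rose by 4.91 ± 0.84 (adjusted p = 0.00268) in high and 3.66 ± 0.84 (adjusted p = 0.0123) in int libraries, the latter not without int library 1 or 3 (adjusted p = 0.0543 and 0.0646). Ltbr, the lymphotoxin beta receptor, stood at 1184, 1514 and 1079 in naive, 353, 643 and 287 in high and 415, 573 and 602 in int libraries. It fell by 1.63 ± 0.34 (adjusted p = 0.00682) in high and 1.25 ± 0.34 (adjusted p = 0.0252) in int libraries, the latter not without naive library 1, 2 or 3 (adjusted p = 0.0619, 0.0781 and 0.0508) or int library 1 or 3 (adjusted p = 0.104 and 0.0619).

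Downstream of the receptors, adaptors were called in both directions. Of 15 TRAF, death domain and IAP genes, 3 rose and 4 fell in high libraries, and 5 rose and 1 fell in int libraries, beside 31.3% and 22.3% of all genes called in either direction. Traf4 fell by 3.18 (adjusted p = 0.00171) and 2.65 (adjusted p = 0.00477), while Traf5, which serves the costimulatory receptors, rose by 1.98 in both comparisons (adjusted p = 0.00691 and 0.00801). Xiap, an inhibitor of caspases, rose by 2.22 (adjusted p = 0.0167) in high and 1.88 (adjusted p = 0.0399) in int libraries. Fadd, Traf2 and Tradd were lower in high libraries, at -2.92, -2.43 and -1.39 (adjusted p = 0.0275, 0.0428 and 0.0494). Each of these calls was lost with some single libraries left out. In int libraries the 3 genes were also lower, at -2.49, -0.81 and -1.20, and were not called (adjusted p = 0.0607, 0.498 and 0.0990). Of 13 kinases and subunits of the NF-kB pathway, 6 rose in high and 4 in int libraries and none fell, where 14.7% and 12.0% of all genes rose. Both of these lists were chosen with earlier results of these data known, so their counts are not a test. Tab2, an adaptor of the kinase TAK1, rose by 1.77 (adjusted p = 0.00195) and 1.57 (adjusted p = 0.00417). Nfkb1 rose by 1.17 (adjusted p = 0.0227) in high and 1.61 (adjusted p = 0.00733) in int libraries, the former not without naive library 3 or high library 3 (adjusted p = 0.0806 and 0.0543).

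Among 8 genes of linear ubiquitin and its removal, 2 rose and 2 fell in high libraries and 2 rose in int libraries, beside 31.3% and 22.3% of all genes called in either direction. Tnfaip3 (A20), which removes ubiquitin from receptor complexes, rose by 3.29 (adjusted p = 0.000282) and 3.06 (adjusted p = 0.000499). Rbck1, a subunit of the ligase that builds linear ubiquitin, fell by 3.08 (adjusted p = 0.0119) in high libraries. In int libraries its difference was -1.77 and was not called (adjusted p = 0.108). Of 16 common NF-kB targets, 10 rose in high and 11 in int libraries and none fell, where 14.7% and 12.0% of all genes rose. Their median log2 fold changes were 1.66 and 1.75, beside -0.11 and -0.02 over all genes. This list was chosen with earlier results of these data known, so its counts and medians are not a test. Ccl2, a monocyte chemokine, rose by 4.46 (adjusted p = 9.88e-05) and 3.98 (adjusted p = 0.000212). Vcam1, an adhesion molecule, rose by 3.95 (adjusted p = 0.000282) and 3.29 (adjusted p = 0.000748). Of the 44 strongest calls over these companion lists (up to 4 per list and direction), 28 held when any 1 library was left out and 16 did not. The fibroblast and monocyte sums given above were higher in the same tumour groups, and the part of those cells in the NF-kB genes was not tested.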

How the data were processed

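RNA of 9 libraries (3 groups of 3 pools) was measured. Per the labels, sorted cells were over 98% pure, RNA integrity was above 6.3, and libraries followed a protocol given as Cell-seq. Reads were aligned with TopHat2 2.1.0 to GRCm38, counted with HTSeq and normalized with DESeq2 1.10.0, per the submitters' processing notes. The deposited signal is the gene count over a library's size factor, rounded to 2 decimals by the authors. When divided by the column's smallest step, 100% of values up to 2000 reads were whole (within 0.05 read), and the value of 1 read ran from 0.316 to 2.61 normalized counts. Whether molecular identifiers were counted is not given in the sources used here, so floors and intervals hold counting error alone.

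Of 54670 deposited entries, 63 with names turned into dates (0.219% of the total), 116 exact copies and 130 that repeat a name together with its values were left out, and 69 still share a name. Genes with a mean of at least 5 were fitted with limma 3.58.1 (R 4.3.3) on log2(value + 1), all 9 libraries in 1 fit with a variance trend. Tests were two-sided, and p was adjusted over all genes tested by the Benjamini-Hochberg method at 0.05. They measure the spread between pools of mice. The labels do not say that replicate numbers mark a shared batch. Replicates differed by more than sampling noise (chi-square per degree of freedom 16.6 to 148). With 3 against 3 libraries a permutation test of a single gene cannot go below p = 0.1. The procedure was tested on simulated data. Alternatives covered pseudocounts, filters, scalings, a fit of only the groups compared, a replicate block, each library left out, and count tests of the recovered reads by edgeR 4.0.16 and DESeq2 1.42.0.

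Members, companion lists and cell type lists were chosen with earlier results of these data known. Members called in any comparison, or with a group mean of at least 50, are given in full, and so are other tested members by range. Of each companion list, up to 4 called genes per direction were eligible to be named. Positions and exon overlaps come from GENCODE annotation of GRCm38, and promoter windows (250 bases before to 50 after the start) from RefSeq. Protein sequences were planned and not used here. 2 receptor genes that match the symbol pattern are not reported here. Figures were drawn with matplotlib 3.10.9.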

Additional observations from a re-analysis of the deposited data

How the results depend on the processing

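The count of members called between high and naive (7) was 4 with no filter on low values, 3 in a fit of only the groups compared and 4 to 7 with each library left out, and between int and naive (5) it was 3 to 6 with each library left out. Every other setting stayed within 1.5 times, edgeR and DESeq2 gave 7 and 5 members, and the count between high and int was 0 in all. Every member called under a changed count of 3 or 4 was also called in the fit of all libraries. The cause of the lower counts was not tested. Over the single genes named or tested, 1837 alternative values kept sign and side of the threshold, 159 kept the sign and lost the call, 3 gained it and 47 changed sign, all of the last for uncalled differences.

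With single libraries left out, the log2 differences that changed sign ran as follows. Between high and naive they ran from -1.72 to 0.56 for Tnfsf12, -0.96 to 0.18 for Tnfsf14, -0.36 to 0.47 for Tnfrsf10b, -2.28 to 0.25 for Tnfrsf11b, -1.55 to 0.20 for Tnfrsf12a and -0.22 to 0.96 for Tnfrsf22. Between int and naive they ran from -0.11 to 0.70 for Tnfsf12, -0.80 to 0.60 for Tnfrsf10b, -1.74 to 0.81 for Tnfrsf11b and -0.10 to 0.33 for Tnfrsf12a. Between high and int they ran from -2.13 to 0.16 for Tnfsf12, -0.47 to 0.92 for Tnfrsf10b, -1.62 to 0.53 for Tnfrsf11b, -1.61 to 0.14 for Tnfrsf12a, -0.14 to 0.36 for Tnfrsf21, -0.33 to 0.20 for Tnfrsf23 and -0.42 to 0.46 for Tnfrsf26. Without both high library 1 and int library 2, values against naive were 0.56 (high) and -0.11 (int) for Tnfsf12, 0.25 and 0.81 for Tnfrsf11b, 0.60 (int) for Tnfrsf10b and 0.20 (high) for Tnfrsf12a, and between high and int they were 0.67 for Tnfsf12, -0.12 for Tnfrsf10b, 0.41 for Tnfrsf21, 0.17 for Tnfrsf23 and -0.47 for Tnfrsf26. Equal totals and TMM factors gave 0.0903 and 0.0265 for Tnfrsf10b between int and naive, and -0.0497 and -0.0208 for Tnfrsf21 between high and int. edgeR and DESeq2 gave 0.14 and 0.0340 for Tnfsf12 between high and naive, 0.29 and 0.17 for Tnfrsf10b between int and naive, and -0.0757 and -0.0180 for Tnfrsf26 between high and int, where edgeR gave -0.0321 for Tnfrsf10b.

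With the replicate number as a block, 6, 5 and 0 members were called in the 3 comparisons, and Tnfrsf9 in high libraries was the call lost (adjusted p = 0.0574). Same-numbered high and int libraries deviated together with correlations of 0.123, 0.141 and 0.0718, while the other pairs of high and int libraries ran from -0.157 to -0.0105. Naive libraries ran from -0.0293 to 0.0616 with the same number and from -0.0754 to 0.0522 with other numbers. They came from other mice, so they cannot tell whether high and int libraries share pools. The labels name no pairs, and the main fit took high and int libraries as independent.

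Over all genes, calls between high and naive (4266) numbered 2500 in a fit of only those groups and 2758 to 5096 with each library left out. Calls between int and naive (3036) numbered 4996, 1401 to 5301, and 4822 without high library 1 and int library 2. The 11 members below the filter all rest on fewer than 40 reads per group, and the part of depth in that was not tested.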
